A study of Mus musculus with 6 samples.

Results

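Amacrine cells are the inhibitory interneurons of the inner retina. They receive input from bipolar cells and synapse onto bipolar, ganglion and other amacrine cells, and most of them release either GABA or glycine. Smaller types add acetylcholine (the starburst cells), dopamine, glutamate, nitric oxide or a neuropeptide to this, and the AII cell carries rod signals into the cone pathway through gap junctions. The genes described here are a named list of 32 symbols, all of them found among the 24346 gene symbols in the files by exact match. They comprise 9 transcription factors of amacrine identity, 3 genes of GABA synthesis and storage, 1 glycine transporter, 5 genes of the cholinergic starburst cell, 1 dopamine synthesis gene, 5 genes of the AII and other subtypes, and 8 genes for neuropeptides or nitric oxide synthesis.

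The genes were measured by RNA-seq in whole retina of mice, in 3 Unc119-/- samples (called knockout here) and 3 Unc119+/+ samples (wild type). UNC119 carries lipid-modified proteins, among them rod transducin, and the study's title links its loss to cone-rod dystrophy. Libraries carry the numbers 1 to 3 in each genotype. The labels do not tell whether every library is 1 animal, so p-values reflect only how far these libraries spread, and some of that spread may be technical. The labels and files used here name no age, strain, sex or kind of Unc119 allele.

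The targeted gene Unc119 measured 510, 460 and 449 FPKM in knockout replicates 1, 2 and 3, against 1191, 1187 and 1206 FPKM in wild-type replicates 1, 2 and 3. FPKM is the number of fragments scaled to transcript length and to the size of the library. Unc119 transcript was thus lower in each knockout library but still present. Knockout replicate 1 and wild-type replicates 1 and 2 were male by Xist and Y-linked genes, and the other 3 libraries were female. Each change given within a sex thus compares 1 library of a genotype with 2 of the other. The summed FPKM of 9 lens markers was 211, 476 and 10861 in knockout replicates 1, 2 and 3, against 105, 631 and 0.423 in wild-type replicates 1, 2 and 3. Knockout replicate 3 stood apart by this measure, so values that rest on it are given with and without it. Markers of ciliary body and cornea were also uneven. Their summed FPKM was 32.9, 9.04 and 40.9 in knockout replicates 1, 2 and 3, against 3.01, 13.7 and 1.86 in wild-type replicates 1, 2 and 3, and all 4 that were tested, of 5 listed, had a higher mean in the knockout with 0 called. Their part in the results was not tested. The summed FPKM of 4 microglia markers did not overlap between genotypes, at 26.1 to 27.4 in knockout and 12.3 to 17.6 in wild-type libraries. All 4 had a higher mean in the knockout, and 0 were called. Pigment epithelium markers summed to 16.1 to 54.8 FPKM in knockout and 18.6 to 35.8 FPKM in wild-type libraries, with 0 called. Rod markers summed to 17321 to 18416 FPKM in knockout and 17131 to 18527 FPKM in wild-type libraries, also with 0 called. Markers of the neighbouring inner retinal neurons were mostly lower in the knockout, and none passed the test. For ganglion cells 7 of 8 were lower, with a summed FPKM of 448 to 453 in knockout and 439 to 504 in wild-type libraries. For bipolar cells 5 of 6 were lower and for horizontal cells 4 of 4, with median log2 changes of -0.06 and -0.19. Summed FPKM overlapped for bipolar markers, at 354 to 365 in knockout and 362 to 386 in wild-type libraries. It did not overlap for horizontal cell markers, at 22.6 to 26.1 in knockout and 26.6 to 29.1 in wild-type libraries. Of 4 Mueller glia markers 3 were lower and 0 were called. Their summed FPKM did not overlap, at 1085 to 1108 in knockout and 1136 to 1221 in wild-type libraries.

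Amacrine identity genes were well represented in both genotypes. Over the 6 libraries, 2 members had a mean of at least 100 FPKM (Calb2 and Gad1), 17 lay between 10 and 100 FPKM and 13 lay under 10 FPKM. No member was at 0 in all libraries. The summed FPKM of the 32 members was 840, 826 and 900 in knockout replicates 1, 2 and 3, against 882, 874 and 832 in wild-type replicates 1, 2 and 3, so the genotypes overlapped. Penk gave 76.9 FPKM of the sum in knockout replicate 3 and at most 8.85 FPKM in any other library. In whole retina, fewer amacrine cells and less RNA per amacrine cell cannot be told apart.

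None of the 31 members tested differed between genotypes after adjustment over all genes. The genotypes were compared with limma on log2(FPKM + 1), for genes with a mean of at least 0.5 FPKM over the 6 libraries, and a gene was called at a Benjamini-Hochberg adjusted p under 0.05. That threshold was passed by 0.233% of the 14176 genes tested (0.205% higher and 0.0282% lower in the knockout). The lowest adjusted p of any member was 0.375. At an unadjusted p under 0.05 there were 6 members, or 19.4%, against 9.00% of all genes tested. Of these, 2 were higher in the knockout (Tfap2a and Cck), against 5.19% of all genes, and 4 were lower (Gad1, Gad2, Chat and Gjd2), against 3.81%. The genotypes did not overlap for 9 members, or 29.0%, against 15.9% of all genes tested. To those 6 this adds Slc17a8, which makes 3 higher in the knockout against 7.83% of all genes, and Dab1 and Nos1, which make 6 lower against 8.04%.

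Changes were small across the list. The median log2 change was -0.04 over the 31 members and -0.0017 over all genes tested, and 18 of 31 members (58.1%) were lower in the knockout, against 50.7% of all genes tested. On the log2(FPKM + 1) scale, changes stayed within 1.2-fold in either direction for 26 of 31 members (83.9%), against 90.1% of all genes. The 5 members beyond it were Cck, Penk, Maf, Slc17a8 and Gjd2. This scale understates changes of low genes. Chat lay within the bound, although its mean FPKM was 81.2% of wild type, against 83.2% for Gjd2. All 5 cholinergic genes and 4 of the 5 AII and subtype genes were lower, while 5 of the 7 tested peptide and nitric oxide genes were higher. The class medians were -0.12 for GABA, -0.10 for AII and other subtypes, -0.08 for acetylcholine, -0.02 for transcription factors and 0.0078 for neuropeptides and nitric oxide. The single genes of glycine and dopamine changed by 0.05 and 0.01. The classes were not tested against each other.

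**Figure D1:**
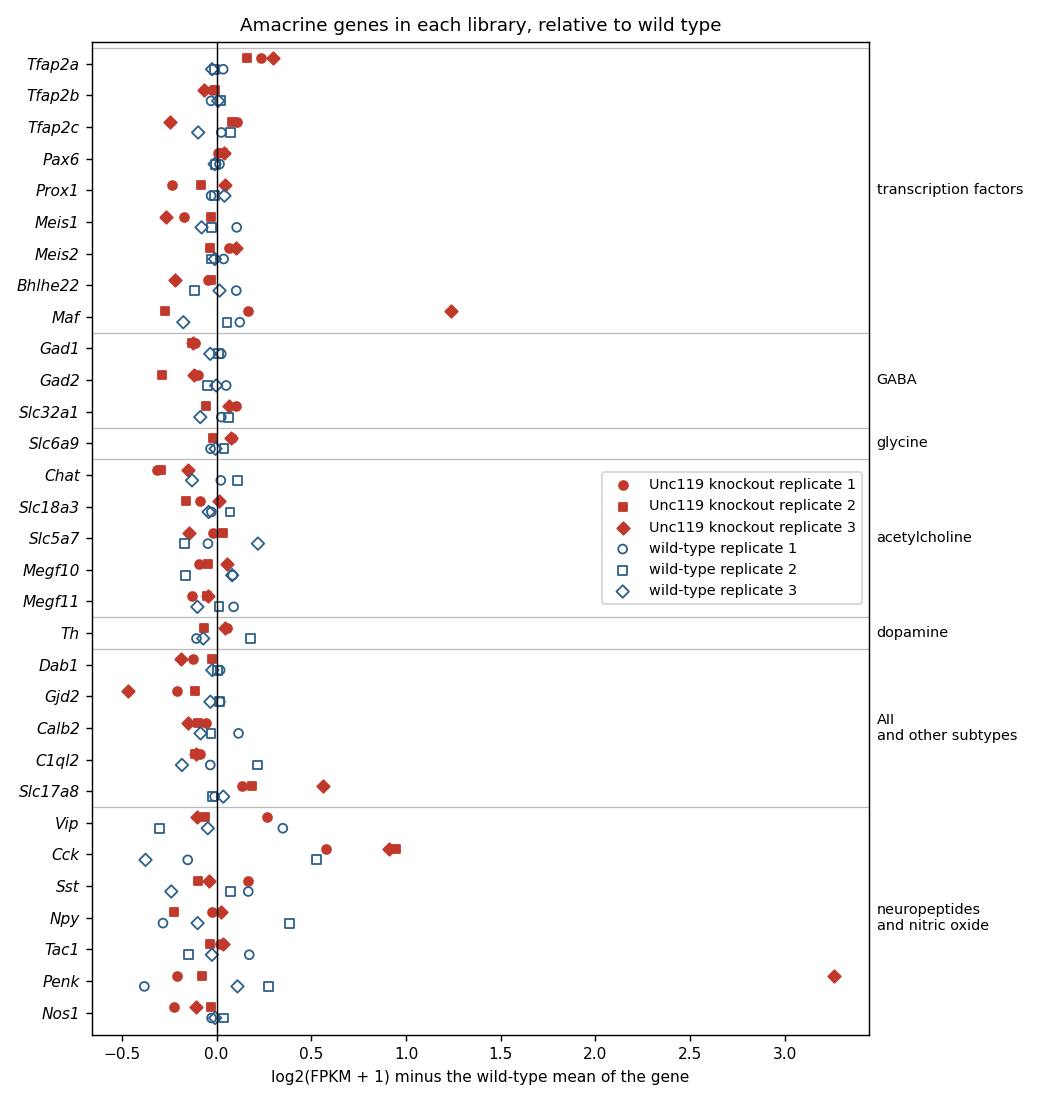
Value of each of the 31 tested members in each library, as log2(FPKM + 1) minus the wild-type mean of the gene, grouped by class. Filled red symbols are the 3 knockout libraries and open blue symbols the 3 wild-type libraries. Most symbols lie near 0, and knockout replicate 3 (diamonds) lies far to the right for Penk and Maf.

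**Figure D2:**
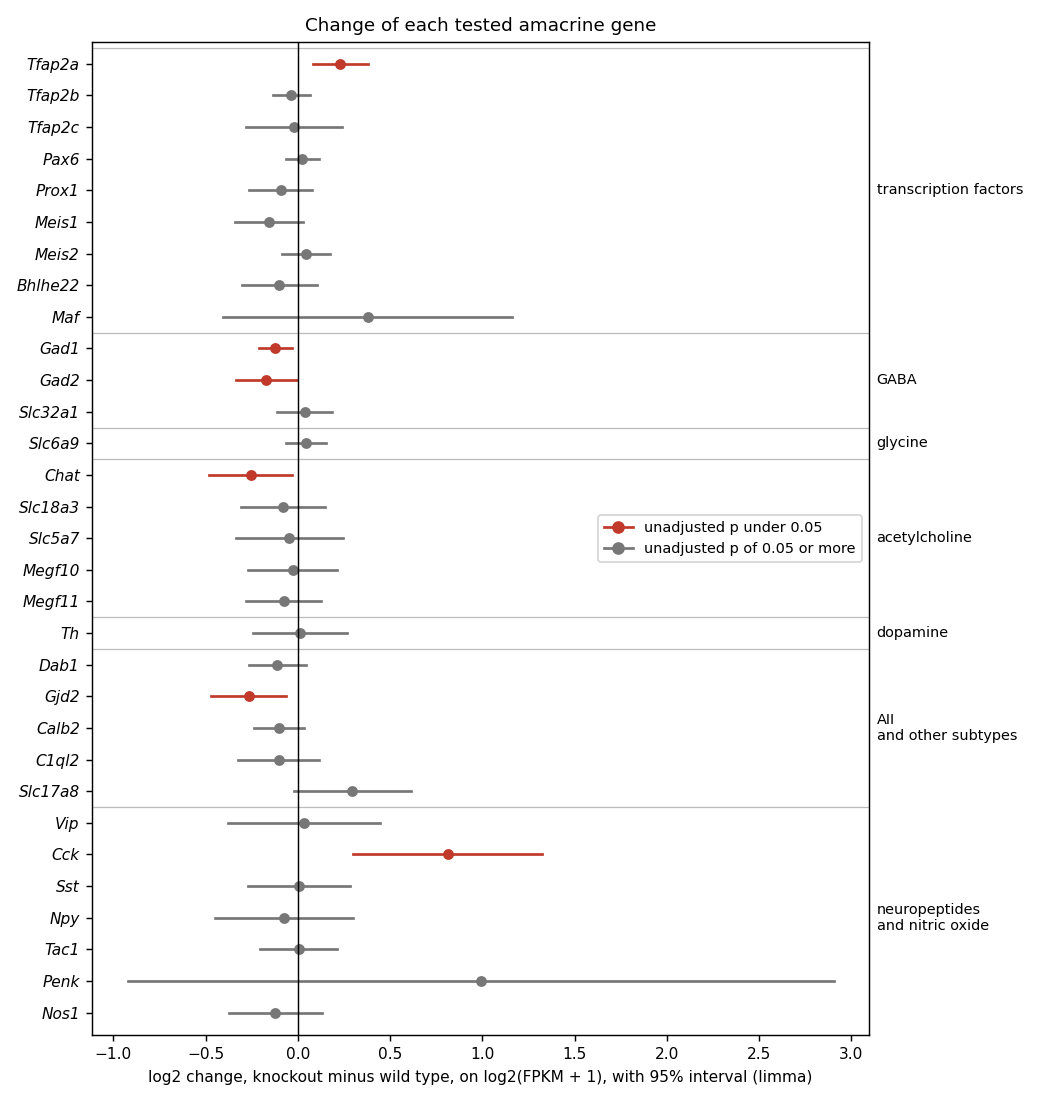
Log2 change of each tested member, knockout minus wild type, with its 95% interval from limma. The 6 genes in red had an unadjusted p under 0.05, and none of the 31 had an adjusted p under 0.05.

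The transcription factors of amacrine identity overlapped between genotypes, apart from Tfap2a. Pax6, a homeobox gene that amacrine, ganglion and horizontal cells keep expressing, measured 86.6, 88.4 and 88.6 FPKM in knockout replicates 1, 2 and 3, against 87.2, 86.1 and 85.7 FPKM in wild-type replicates 1, 2 and 3. It was the steadiest member of the class, with a coefficient of variation of 1.25% in knockout and 0.939% in wild-type libraries, and its log2 change was 0.03 (95% interval -0.06 to 0.11). Tfap2b, an AP-2 factor that amacrine cells need together with its paralog Tfap2a, measured 45.6, 46.1 and 44.2 FPKM in knockout libraries, against 45.4, 47.2 and 46.7 FPKM in wild-type libraries. Its log2 change was -0.04 (95% interval -0.14 to 0.07). The interval of either gene leaves out a change of 1.2-fold.

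Tfap2a was the factor whose genotypes separated. It measured 14.5, 13.7 and 15.2 FPKM in knockout replicates 1, 2 and 3, against 12.5, 12.1 and 11.9 FPKM in wild-type replicates 1, 2 and 3. Each knockout value was above each wild-type value. On the log2 scale the difference was 0.23 ± 0.06 (SE, limma adjusted p = 0.389), or 0.22 within males and 0.25 within females, and 0.20 without knockout replicate 3. Tfap2a is also expressed in the lens. With the mean log2(FPKM + 1) of the lens markers as a term in the fit, its log2 change was 0.19 (limma adjusted p = 0.878). Over all genes, 5 were called higher with that term, against 29 without it. The unadjusted p of Tfap2a (limma) was under 0.05 in each of the 17 alternative settings, the lens term among them. The part of lens RNA in the difference was otherwise not tested. The ratio of Tfap2b to Tfap2a was 3.15 ± 0.227 in knockout and 3.82 ± 0.153 in wild-type libraries (SD, n = 3 each). The third AP-2 gene on the list, Tfap2c, overlapped between genotypes at 8.30, 8.15 and 6.28 FPKM in knockout and 7.79, 8.09 and 7.07 FPKM in wild-type libraries. Tfap2a shares 380 exonic bases with Gm26688 on the opposite strand, which stayed between 0.456 and 1.42 FPKM, and no source used here says whether the counting used strand.

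Prox1, expressed by AII amacrine and horizontal cells and by the lens, measured 30.2, 33.7 and 36.9 FPKM in knockout replicates 1, 2 and 3, against 35.1, 35.5 and 36.9 FPKM in wild-type replicates 1, 2 and 3. Knockout replicate 1 was low and knockout replicate 3 was level with wild type. The log2 change was -0.16 without knockout replicate 3 (limma unadjusted p = 0.0402, adjusted p = 0.652) and -0.02 without knockout replicate 1. The TALE homeobox gene Meis1 measured 18.1, 20.1 and 16.9 FPKM in knockout libraries, against 22.1, 20.1 and 19.3 FPKM in wild-type libraries. Its relative Meis2, a marker of GABAergic amacrine cells, measured 27.5, 25.6 and 28.3 FPKM in knockout libraries, against 26.9, 25.7 and 26.1 FPKM in wild-type libraries. Bhlhe22, a basic helix-loop-helix factor that mice need for some amacrine and OFF bipolar types, measured 10.8, 11.0 and 9.46 FPKM in knockout libraries, against 12.1, 10.2 and 11.3 FPKM in wild-type libraries. The genotypes overlapped for each of these 4 genes, with log2 changes of -0.09, -0.16, 0.04 and -0.10 in that order. For Meis1, Meis2 and Bhlhe22 these were -0.10, 0.01 and -0.04 without knockout replicate 3. For Meis1 the change was -0.10 without wild-type replicate 1 and -0.22 without knockout replicate 2. For Bhlhe22 the change was -0.05 without wild-type replicate 1 and -0.16 without wild-type replicate 2.

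Maf, a basic leucine zipper factor best known from lens fibres, was high in 1 library. It measured 3.40, 2.25 and 8.26 FPKM in knockout replicates 1, 2 and 3, against 3.27, 3.08 and 2.47 FPKM in wild-type replicates 1, 2 and 3. Its log2 change was 0.38 ± 0.34 (SE, limma adjusted p = 0.753), and without knockout replicate 3 it was -0.05. The library with the high value is the one with the highest lens markers. With the lens markers as a term in the fit, the log2 change of Maf was -0.13 (limma adjusted p = 0.988). The part of lens RNA in the value was otherwise not tested.

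Promoter windows from RefSeq on GRCm38.p6, 250 bases before to 50 after a start site, were matched for 24 of the 32 members, with 31 windows in all. A palindrome bound by AP-2 proteins (GCCNNNGGC, both strands) occurred in windows of 3 members, Gad2, Slc18a3 and Pax6, and in 16.6% of all 32851 promoter windows. The cAMP response element (TGACGTCA, both strands) occurred in windows of 3 members, Sst, Th and Pax6, and in 1.79% of all windows. For both motifs the first count is of members, 24 of which have the 31 windows, and the percentage is of windows. The units thus differ, and whether members hold either motif more often was not tested. The windows below show the pair of GABA synthesis genes side by side, with the cholinergic, dopaminergic and peptide genes that hold matches. Letters in capitals mark the AP-2 palindrome in Gad2 and Slc18a3 and the cAMP response element in Th and Sst. In Slc18a3 the first pair of the 3 matches share 2 bases, and Gad1 held no match to either motif. The element starts 45 bases before the start site of Th and 48 bases before that of Sst. A match describes the letters in the window and is not evidence of binding. The windows are chr2:70561879-70562178 (plus strand) for Gad1, chr2:22622077-22622376 (plus strand) for Gad2, chr14:32464801-32465100 (minus strand) for Slc18a3, chr7:142899946-142900245 (minus strand) for Th and chr16:23890795-23891094 (minus strand) for Sst, each written from 5′ to 3′ on the strand of the gene.
Gad1: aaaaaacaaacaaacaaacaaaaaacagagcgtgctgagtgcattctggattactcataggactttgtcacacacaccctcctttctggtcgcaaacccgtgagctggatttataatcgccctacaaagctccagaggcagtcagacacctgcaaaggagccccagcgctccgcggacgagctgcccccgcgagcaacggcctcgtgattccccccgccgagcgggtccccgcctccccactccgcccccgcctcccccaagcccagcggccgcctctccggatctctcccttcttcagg
Gad2: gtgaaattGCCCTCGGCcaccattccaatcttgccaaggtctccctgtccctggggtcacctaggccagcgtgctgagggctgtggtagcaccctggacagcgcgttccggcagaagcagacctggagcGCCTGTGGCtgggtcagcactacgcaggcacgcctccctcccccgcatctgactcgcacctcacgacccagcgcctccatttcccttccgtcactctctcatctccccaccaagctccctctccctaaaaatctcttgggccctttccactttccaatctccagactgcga
Slc18a3: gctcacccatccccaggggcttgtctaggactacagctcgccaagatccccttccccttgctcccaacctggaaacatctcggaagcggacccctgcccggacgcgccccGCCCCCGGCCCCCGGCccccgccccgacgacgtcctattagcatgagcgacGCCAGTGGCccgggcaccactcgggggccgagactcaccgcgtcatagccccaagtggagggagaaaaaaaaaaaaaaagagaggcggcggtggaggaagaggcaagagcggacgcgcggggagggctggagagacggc
Th: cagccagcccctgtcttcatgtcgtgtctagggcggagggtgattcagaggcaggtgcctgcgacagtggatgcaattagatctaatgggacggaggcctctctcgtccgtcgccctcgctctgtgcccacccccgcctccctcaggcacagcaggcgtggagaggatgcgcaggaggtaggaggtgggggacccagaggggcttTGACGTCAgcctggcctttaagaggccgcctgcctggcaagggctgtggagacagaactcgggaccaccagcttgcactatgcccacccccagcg
Sst: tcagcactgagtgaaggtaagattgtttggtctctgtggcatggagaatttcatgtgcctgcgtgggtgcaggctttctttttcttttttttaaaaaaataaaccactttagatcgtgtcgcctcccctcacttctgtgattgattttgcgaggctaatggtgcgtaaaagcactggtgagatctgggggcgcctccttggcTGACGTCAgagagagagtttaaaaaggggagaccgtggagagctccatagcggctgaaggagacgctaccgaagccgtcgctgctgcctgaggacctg

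Both enzymes of GABA synthesis were slightly lower in each knockout library, and the transporter that loads GABA into vesicles was not. Gad1 (chr2:70553072-70602014, plus strand), which encodes the glutamate decarboxylase GAD67, measured 100.1, 98.8 and 99.3 FPKM in knockout replicates 1, 2 and 3, against 110.1, 109 and 106 FPKM in wild-type replicates 1, 2 and 3. The genotypes did not overlap, and the spread within each was small. Gad1 averaged 99.4 ± 0.655 FPKM in knockout and 108 ± 2.29 FPKM in wild-type libraries (SD, n = 3 each). Gad1 thus stood at 91.8% of its wild-type mean, a log2 change of -0.12 ± 0.04 (SE, limma adjusted p = 0.443), or -0.13 within males and -0.09 within females. Over the 17 alternative settings it ran from -0.14 to -0.11, and its unadjusted p was under 0.05 in 16 of them.

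Gad2 (chr2:22622205-22693874, plus strand), which encodes the second decarboxylase GAD65, measured 15.1, 13.1 and 14.9 FPKM in knockout replicates 1, 2 and 3, against 16.9, 15.7 and 16.2 FPKM in wild-type replicates 1, 2 and 3. Knockout replicate 2 was the lowest, and the nearest values of the genotypes, 15.1 and 15.7 FPKM, were close. The mean was 88.4% of wild type, a log2 change of -0.17 ± 0.07 (SE, limma adjusted p = 0.549). It was -0.11 without knockout replicate 2, and the unadjusted p was under 0.05 in 10 of the 17 alternative settings. Gad1 was the more abundant of the pair, at 6.94 ± 0.511 times the level of Gad2 in knockout and 6.66 ± 0.245 times in wild-type libraries (SD, n = 3 each), so the ratio of the enzymes overlapped between genotypes. Slc32a1, the vesicular transporter for both GABA and glycine, measured 35.2, 31.5 and 34.3 FPKM in knockout libraries, against 33.3, 34.2 and 30.8 FPKM in wild-type libraries. Its log2 change was 0.04 (95% interval -0.11 to 0.18).

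Other genes of GABA handling were taken from a list that includes breakdown enzymes. Of its 6 tested genes 5 were lower in the knockout, 0 were called (limma) and 2 had an unadjusted p under 0.05. For this list and the further gene lists below, the shares over all genes tested were 50.7% lower and 49.3% higher. An unadjusted p under 0.05 (limma) was held by 9.00% of all genes tested, and 15.9% did not overlap between genotypes. The glutamine transporter Slc38a1 measured 49.4 ± 1.28 FPKM in knockout and 53.5 ± 0.911 FPKM in wild-type libraries (SD, n = 3 each). Of 16 tested GABA receptor genes 14 were lower, 0 were called and 3 had an unadjusted p under 0.05, with a median log2 change of -0.11. Gabrr2, a subunit of the GABA-C receptor, measured 48.9, 47.9 and 47.6 FPKM in knockout replicates 1, 2 and 3, against 54.6, 54.7 and 50.1 FPKM in wild-type replicates 1, 2 and 3 (log2 change -0.14, limma adjusted p = 0.499). The genotypes did not overlap. Receptor genes are expressed by bipolar and ganglion cells too.

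Glycine genes overlapped at the transporter, and most other genes of glycine handling had a higher mean in the knockout, none of them called. Slc6a9, the glycine transporter GLYT1 that marks glycinergic amacrine cells, measured 71.5, 66.7 and 71.2 FPKM in knockout replicates 1, 2 and 3, against 66.0, 69.4 and 67.3 FPKM in wild-type replicates 1, 2 and 3. The genotypes overlapped, and the log2 change was 0.05 (95% interval -0.06 to 0.15). Slc6a9 shares 1429 exonic bases with Ccdc24 on the opposite strand, listed at 120 to 138 FPKM, so its level is uncertain if strand was not used. Slc6a9 stood at 2.08 ± 0.044 times Slc32a1 in knockout and 2.06 ± 0.107 times in wild-type libraries (SD, n = 3 each). Of 7 other tested genes of glycine handling 5 were higher and 0 were called. The most abundant was Dld, a subunit of the glycine cleavage system, at 57.7 ± 2.14 FPKM in knockout and 58.1 ± 1.93 FPKM in wild-type libraries (SD, n = 3 each). There were 2 with an unadjusted p under 0.05, Gldc and Amt, both further subunits of that system. Gldc measured 9.62, 10.3 and 14.2 FPKM in knockout replicates 1, 2 and 3, against 7.33, 8.30 and 8.68 FPKM in wild-type replicates 1, 2 and 3 (log2 change 0.43, limma adjusted p = 0.454). Knockout replicate 3 was the highest, and without it the log2 change was 0.27. Of 6 glycine receptor genes, gephyrin included, 5 were lower and 0 were called. Glra1 alone had an unadjusted p under 0.05, and it measured 7.57 ± 0.751 FPKM in knockout and 9.55 ± 0.469 FPKM in wild-type libraries (SD, n = 3 each).

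The 5 cholinergic starburst genes were all lower on average, but Chat was the one whose genotypes did not overlap. Chat, choline acetyltransferase, measured 4.95, 5.02 and 5.64 FPKM in knockout replicates 1, 2 and 3, against 6.50, 6.97 and 5.75 FPKM in wild-type replicates 1, 2 and 3. Knockout replicate 3 and wild-type replicate 3 nearly met. The mean was 81.2% of wild type, a log2 change of -0.25 ± 0.10 (SE, limma adjusted p = 0.516), or -0.38 within males and -0.09 within females. Its unadjusted p (limma) was under 0.05 in 11 of the 17 alternative settings. Slc18a3, the vesicular acetylcholine transporter, lies inside the Chat gene on the same strand (chr14:32462438-32464850, within chr14:32408203-32465989), and their annotated exons share no base. It overlapped between genotypes at 3.43, 3.20 and 3.74 FPKM in knockout and 3.61, 3.94 and 3.57 FPKM in wild-type libraries (log2 change -0.08). The ratio of Chat to Slc18a3 was 1.51 ± 0.063 in knockout and 1.73 ± 0.10 in wild-type libraries (SD, n = 3 each).

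The choline transporter Slc5a7 measured 3.72, 3.89 and 3.32 FPKM in knockout libraries, against 3.64, 3.25 and 4.57 FPKM in wild-type libraries, where replicate 3 was high. Megf10 and Megf11 encode receptors that space starburst and horizontal cells in the mouse retina. Megf10 measured 4.42, 4.61 and 5.0 FPKM in knockout libraries, against 5.13, 4.15 and 5.12 FPKM in wild-type libraries. Megf11 measured 5.11, 5.44 and 5.48 FPKM in knockout libraries, against 6.12, 5.75 and 5.23 FPKM in wild-type libraries. The genotypes overlapped for these 3 genes, with log2 changes of -0.05, -0.03 and -0.08. Among the other 4 genes of the acetylcholine list 3 were higher in the knockout and 0 were called. The most abundant was Ache, the acetylcholinesterase, at 36.8 ± 1.6 FPKM in knockout and 33.7 ± 0.570 FPKM in wild-type libraries (SD, n = 3 each, log2 change 0.12, limma adjusted p = 0.549). The genotypes did not overlap for Ache, and its unadjusted p (limma) was 0.0453. Of 12 tested acetylcholine receptor genes 8 were lower and 0 were called, with a median log2 change of -0.08. There were 3 with an unadjusted p under 0.05 (limma), 2 lower and 1 higher, and 4 whose genotypes did not overlap.

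Th, tyrosine hydroxylase of the dopaminergic amacrine cell, was level between genotypes. It measured 4.11, 3.70 and 4.07 FPKM in knockout replicates 1, 2 and 3, against 3.56, 4.56 and 3.68 FPKM in wild-type replicates 1, 2 and 3. The wild-type spread enclosed every knockout value. Its log2 change was 0.01 (95% interval -0.24 to 0.27). Of 6 other tested genes of dopamine handling 4 were higher and 0 were called, and 1, the biopterin enzyme Spr, had an unadjusted p under 0.05. The most abundant was Qdpr, which regenerates biopterin, at 49.9 ± 1.07 FPKM in knockout and 49.5 ± 2.94 FPKM in wild-type libraries (SD, n = 3 each). The vesicular monoamine transporter Slc18a2, named after its values were seen, measured 3.68 ± 0.137 FPKM in knockout and 3.92 ± 0.224 FPKM in wild-type libraries. Of 4 tested dopamine receptor genes 3 were lower and 0 were called or had an unadjusted p under 0.05.

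Among genes of the AII and other subtypes, the gap junction gene was the only one of the 5 with an unadjusted p under 0.05. Gjd2 (chr2:114009601-114013619, minus strand) encodes connexin 36, which couples AII cells to each other and to ON cone bipolar cells and also joins photoreceptors. It measured 32.6, 34.9 and 27.1 FPKM in knockout replicates 1, 2 and 3, against 38.4, 38.3 and 37.0 FPKM in wild-type replicates 1, 2 and 3. Each knockout value was below each wild-type value, and knockout replicate 3 was the lowest. The mean was 83.2% of wild type, a log2 change of -0.27 ± 0.09 (SE, limma adjusted p = 0.460), or -0.23 within males and -0.26 within females. Leaving out knockout replicate 3, where lens markers were highest, gave -0.16 (limma unadjusted p = 0.0211). The unadjusted p of Gjd2 was under 0.05 in 16 of the 17 alternative settings. Gjd2 shares 57 exonic bases with A530058N18Rik on the opposite strand, which measured 8.43 to 10.4 FPKM over the 6 libraries.

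Dab1, an adaptor of reelin signalling used as an AII marker, measured 12.3, 13.2 and 11.7 FPKM in knockout replicates 1, 2 and 3, against 13.7, 13.5 and 13.2 FPKM in wild-type replicates 1, 2 and 3. The genotypes did not overlap, by the small gap between knockout replicate 2 and wild-type replicate 3, and the log2 change was -0.11 (limma adjusted p = 0.646), or -0.07 without knockout replicate 3. Calb2, the calcium-binding protein calretinin of AII, other amacrine and ganglion cells, was the most abundant member. It measured 201, 195 and 188 FPKM in knockout replicates 1, 2 and 3, against 226, 205 and 197 FPKM in wild-type replicates 1, 2 and 3. The genotypes overlapped at 201 and 197 FPKM, and the log2 change was -0.10 (95% interval -0.24 to 0.03). Without wild-type replicate 1, the highest library, it was -0.04.

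C1ql2, a secreted C1q-like protein, was tight in the knockout at 31.4, 30.8 and 31.0 FPKM and wider in the wild type at 32.6, 39.0 and 29.3 FPKM. Slc17a8, the vesicular glutamate transporter VGLUT3 of a small amacrine type, was low and higher in each knockout library. It measured 2.57, 2.70 and 3.8 FPKM in knockout replicates 1, 2 and 3, against 2.23, 2.2 and 2.33 FPKM in wild-type replicates 1, 2 and 3. This amounts to a log2 change of 0.30 ± 0.14 (SE, limma adjusted p = 0.573), which was 0.16 without knockout replicate 3, whose value was the highest.

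**Figure D3:**
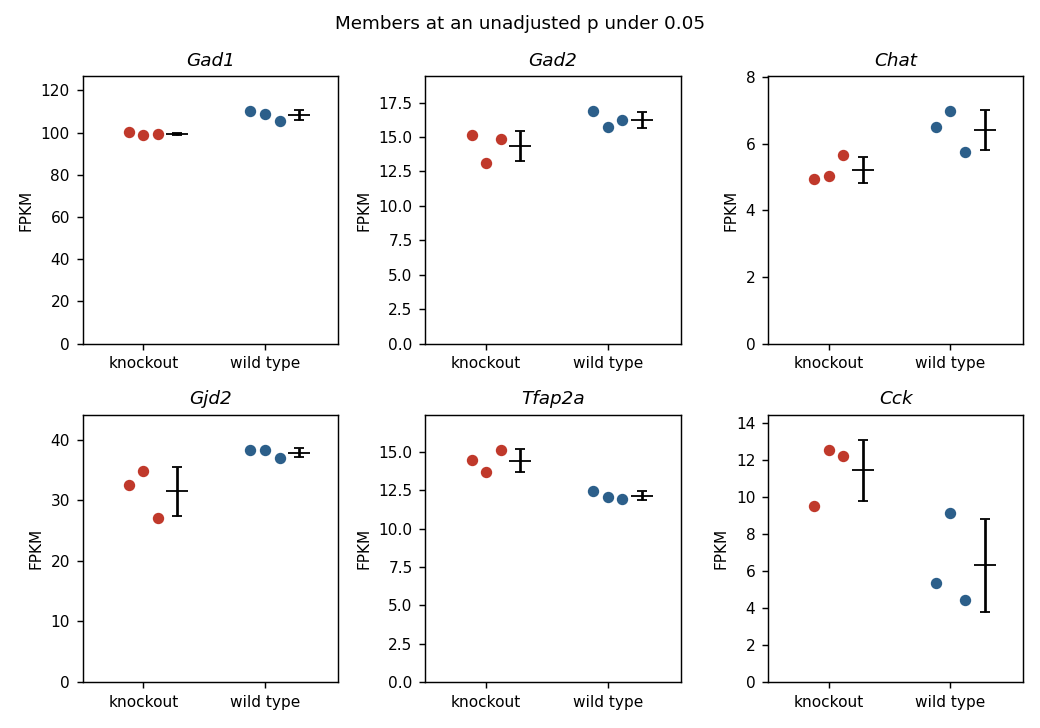
FPKM of the 6 members with an unadjusted p under 0.05, with 1 point per library and the mean and SD (n = 3) beside each genotype, on axes that start at 0. Gad1, Gad2, Chat and Gjd2 were lower and Tfap2a and Cck higher in each knockout library, and none had an adjusted p under 0.05.

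The neuropeptide genes held both the largest changes and the widest spread between replicates. Their class had a median coefficient of variation of 10.5% in knockout and 25.3% in wild-type libraries, against 7.8% and 7.76% over all genes tested. Cck, which encodes cholecystokinin, measured 9.52, 12.6 and 12.2 FPKM in knockout replicates 1, 2 and 3, against 5.33, 9.16 and 4.43 FPKM in wild-type replicates 1, 2 and 3. Each knockout value was above each wild-type value, although wild-type replicate 2 came close to knockout replicate 1. The mean was 11.4 ± 1.67 FPKM in knockout and 6.31 ± 2.51 FPKM in wild-type libraries (SD, n = 3 each), a ratio of 1.81. On the log2 scale this was 0.81 ± 0.22 (SE, limma adjusted p = 0.375). Among males it was 0.39 (1 knockout and 2 wild-type libraries) and among females 1.30 (2 knockout libraries and 1 wild-type library). It was 0.76 without knockout replicate 3 and 0.51 with the lens markers as a term in the fit (limma adjusted p = 0.878). The unadjusted p of Cck (limma) was under 0.05 in all 17 alternative settings. Its lowest adjusted p among them, 0.0899, came from leaving out wild-type replicate 2, the highest wild-type library. Without wild-type replicates 1 and 3 the adjusted p was 0.677 and 0.676.

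Penk, the precursor of the enkephalins, was high in a single library. It measured 6.05, 6.74 and 76.9 FPKM in knockout replicates 1, 2 and 3, against 5.26, 8.85 and 7.80 FPKM in wild-type replicates 1, 2 and 3. Knockout replicates 1 and 2 lay within the wild-type range, and knockout replicate 3 was 8.70 times the highest other library. The fitted log2 change was 0.99 ± 0.83 (SE, limma adjusted p = 0.738), and without knockout replicate 3 it was -0.14. In that library 32 genes had at least 10 FPKM and at least 5 times the highest of the other 5 libraries. Penk was the only member among them, 10 had symbols of the crystallin family, and 8 were lens markers of the 9 listed. Others were the opticin gene Optc (33.4 FPKM), the basement membrane genes Nid1 and Col4a1 (21 and 90.7 FPKM) and Igfbp7 (161 FPKM). Among the other 5 libraries Penk lay between 5.26 and 8.85 FPKM. The highest of these was wild-type replicate 2, with 631 FPKM of lens markers, and the next was wild-type replicate 3, with 0.423 FPKM of them. With the lens markers as a term in the fit, the log2 change of Penk was -0.27 (limma adjusted p = 0.988). The part of non-retinal RNA in the Penk value was otherwise not tested.

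**Figure D4:**
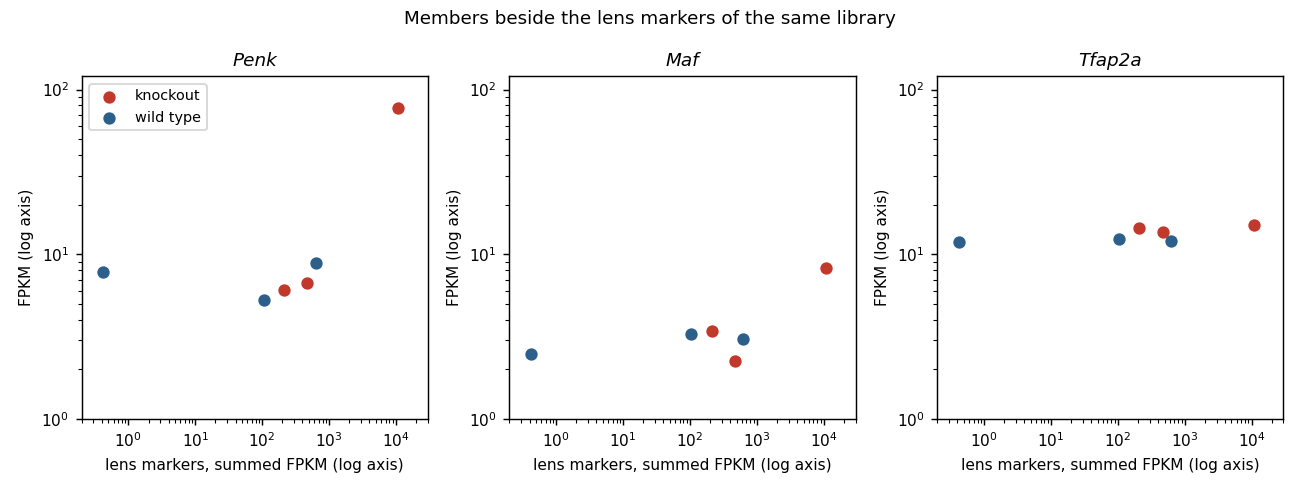
FPKM of Penk, Maf and Tfap2a in each library (log axis) beside the summed FPKM of 9 lens markers in the same library (log axis), with knockout in red and wild type in blue. Knockout replicate 3, at 10861 FPKM of lens markers, is the highest point for Penk (76.9 FPKM) and Maf (8.26 FPKM), while for Tfap2a all 3 knockout points lie above the wild-type points.

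The other peptide genes overlapped between genotypes. Somatostatin (Sst) measured 14.7, 12.1 and 12.7 FPKM in knockout replicates 1, 2 and 3, against 14.8, 13.8 and 10.9 FPKM in wild-type replicates 1, 2 and 3. Tac1, the precursor of substance P, measured 11.5, 11.1 and 11.6 FPKM in knockout libraries, against 12.9, 10.2 and 11.2 FPKM in wild-type libraries. Their log2 changes were 0.0078 (95% interval -0.27 to 0.28) and 0.0049 (95% interval -0.20 to 0.21). Neuropeptide Y (Npy) measured 16.7, 14.4 and 17.3 FPKM in knockout libraries, against 13.8, 22.5 and 15.8 FPKM in wild-type libraries, with wild-type replicate 2 the highest. Vasoactive intestinal peptide (Vip) measured 6.33, 4.84 and 4.68 FPKM in knockout libraries, against 6.77, 3.94 and 4.90 FPKM in wild-type libraries. In both genotypes of Vip, replicate 1 was the highest. Nos1, the neuronal nitric oxide synthase, did not overlap, at 1.89, 2.31 and 2.14 FPKM in knockout and 2.32, 2.46 and 2.36 FPKM in wild-type libraries (log2 change -0.12, limma adjusted p = 0.753, and -0.07 without knockout replicate 1). Crh, corticotropin-releasing hormone, was the 1 member under the filter and was not tested, at 0.357, 0.359 and 0.231 FPKM in knockout and 0.583, 0.557 and 0.277 FPKM in wild-type libraries.

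Further peptide genes were mostly lower, and genes that process peptides were split. Of 11 tested genes of other neuropeptides and granins 8 were lower and 0 were called. The granin Chgb was the most abundant, at 171 ± 9.09 FPKM in knockout and 172 ± 6.36 FPKM in wild-type libraries (SD, n = 3 each). Of 6 tested genes of peptide processing 3 were higher and 3 lower, 0 were called and 2 had an unadjusted p under 0.05, Cpe and Pcsk1n. Cpe, the carboxypeptidase that trims peptide precursors, measured 583, 578 and 545 FPKM in knockout replicates 1, 2 and 3, against 543, 494 and 495 FPKM in wild-type replicates 1, 2 and 3 (log2 change 0.15, limma adjusted p = 0.493). Pcsk1n, whose product proSAAS inhibits a prohormone convertase, measured 42.5, 37.9 and 38.3 FPKM in knockout libraries, against 31.5, 35.8 and 27.5 FPKM in wild-type libraries (log2 change 0.32, limma adjusted p = 0.399). The genotypes did not overlap for either gene. Neither is specific to amacrine cells. Of 8 tested peptide receptor genes 6 were lower, and 0 were called or had an unadjusted p under 0.05.

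Other regulators of amacrine development were likewise without a call. Of 19 tested genes 12 were higher and 7 lower, 0 were called, and 1 (Nfix) had an unadjusted p under 0.05, with a log2 change of 0.23 that was 0.12 without knockout replicate 3. The most abundant was Neurod1, which photoreceptors also express, at 153, 167 and 142 FPKM in knockout replicates 1, 2 and 3, against 153, 164 and 172 FPKM in wild-type replicates 1, 2 and 3. The members and these companions were chosen with earlier results of the same data known, so their counts describe the lists and test nothing about them.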

How the data were processed

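RNA of mouse retina was measured in 3 Unc119 knockout and 3 wild-type libraries. Per the labels' protocols, RNA came from a TRIzol extraction and went into a stranded mRNA library kit. Per the submitters' processing notes, TopHat2 2.1.1 and Cuffdiff 2.2.1 were used with mm10. The authors deposited 1 table of FPKM per library, as the file headers name the unit. For annotation, strand setting and scaling between libraries, nothing was stated in the labels or file headers. FPKM are not counts, so absolute depth is unknown. Relative depth, read from the commonest ratio of genes at or under 0.3 FPKM (tolerance 0.015 log2), was 0.931 to 0.964 in knockout and 0.763 to 1 in wild-type libraries.

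Genes with a mean of at least 0.5 FPKM were fitted on log2(FPKM + 1) by limma 3.58.1 (R 4.3.3), using a trended prior variance. Tests were two-sided, and Benjamini-Hochberg adjustment took in all 14176 genes. This scale understates changes of low genes. An exact permutation test of 3 against 3 cannot go below 0.1. The fit was tested on simulated data. Tables used Python 3.11.15 and pandas 2.3.3. No pair of libraries held identical values. Gene positions are from GENCODE M21, on GRCm38 (mm10). The members and all gene lists were chosen with earlier results of these data known. Every member is named, and of the companion lists those called and the most abundant gene, while other companions were named after their values were seen. Alternatives were the pseudocount, the filter, rescaling, quantile normalization, a replicate block, the prior, library weights, lens and sex terms, and leaving out each library. Some companion genes are not reported here.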

Additional observations from a re-analysis of the deposited data

How the results depend on the processing

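No member was called under any of the 17 alternatives. Of 520 log2 changes of single members under them, 483 kept their direction and 37 changed sign, in 12 members. Leaving out each library in turn gave -0.052 to 0.70 for Maf, -0.14 to 1.59 for Penk, -0.082 to 0.095 for Tfap2c, -0.0064 to 0.083 for Slc32a1, -0.13 to 0.063 for Slc5a7, -0.11 to 0.014 for Megf10, -0.043 to 0.10 for Th, -0.20 to 0.0051 for C1ql2, -0.12 to 0.21 for Vip, -0.11 to 0.091 for Sst, -0.22 to 0.12 for Npy and -0.068 to 0.091 for Tac1. With the lens term the change was -0.13 for Maf, -0.27 for Penk, 0.060 for Tfap2c, -0.0074 for Slc32a1, 0.11 for Slc5a7, -0.058 for Th and -0.040 for Sst. With quantile normalization it was -0.046 for Th, -0.015 for Vip, -0.00056 for Sst and -0.0073 for Tac1. Tfap2c was at 0.031 with library weights and 0.037 with the sex term.

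The acetylcholine median (-0.08) was -0.042 with pseudocount 5, -0.17 with the stricter filter, -0.12 with quantile normalization, -0.13 with the lens term and -0.11 to -0.058 without single libraries. The transcription factor median (-0.02) was 0.023 with library weights or the sex term and -0.047 to 0.018 without single libraries. The AII and subtype median (-0.10) was -0.069 with the sex term and -0.15 to -0.077 without single libraries, and the peptide median (0.0078) was 0.10 with the sex term and -0.070 to 0.091 without single libraries. The cause was not tested for any of these.

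Over all genes, 29 were called higher and 4 lower in the knockout. The number higher was 13 with the replicate block, 17 with a constant prior, 5 with the lens term, 17 with the sex term and 9 to 14 without single libraries. The number lower was 2 with the replicate block, the lens term, the sex term or no filter, and 2 to 4 without single libraries. Same-numbered libraries did not deviate together (r = 0.072, -0.090 and -0.12 for numbers 1, 2 and 3), so the numbers were not taken as pairs. Absolute depth is unknown, and its effect on single members was not measured.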
